A study of Mus musculus with 12 samples.

Results

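AMP-activated protein kinase (AMPK) and the regulators of mitochondrial biogenesis are described here as a set of 10 genes, taken by symbol from the 16821 genes listed for each mouse. The set holds the upstream kinase gene Stk11, the AMPK subunit genes Prkaa1, Prkaa2, Prkab1 and Prkag1, the coactivator genes Ppargc1a and Ppargc1b, and the genes of the DNA-binding factors ERR alpha (Esrra), NRF1 (Nrf1) and TFAM (Tfam). All 10 were found in the files. The rule names them by symbol, as regulators of these pathways.

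Liver RNA was sequenced from 12 adult male C57BL/6J mice, 8 weeks old at purchase, with 1 library per mouse. The sedentary control (Con) group held 6 mice housed alongside that did not run, and the chronic exercise (Exe) group held 6 mice that had 6 weeks of treadmill running of moderate intensity, with sessions of 60 min on 5 days of each week. All mice ate freely, and saline-perfused livers were collected no more than 24 h after the final session. The question is whether transcripts of these regulators differed between livers of Exe and Con mice.

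AMPK senses a fall in cellular energy. It is a complex of a catalytic alpha, a scaffolding beta and a nucleotide-binding gamma subunit, and it is switched on by phosphorylation of the alpha subunit, chiefly by LKB1, the product of Stk11. Active AMPK inhibits fatty acid and sterol synthesis and favours fatty acid oxidation, and in muscle it acts in part through PGC-1 alpha (Ppargc1a). PGC-1 alpha and PGC-1 beta do not bind DNA themselves but coactivate factors such as ERR alpha and NRF1, which drive nuclear genes of the respiratory chain and the gene of TFAM, the protein that packages mitochondrial DNA and starts its transcription. In the liver, PGC-1 alpha is also known for inducing gluconeogenesis in fasting. Phosphorylation and protein levels were not measured by these libraries.

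Values are FPKM (fragments scaled to transcript length and sequencing depth) as deposited by the authors, and levels of different genes are compared on this scale because it is per length. Their sums ranged from 735200 to 820107 per mouse. The deposited values are not counts, but depth could be estimated from the spacing of the lowest values of 38 genes with a single annotated transcript. A single slope over these genes gave 17000000 mapped fragments per mouse (95% confidence interval of the slope 16200000 to 17800000). This takes depth as about equal in all mice, and the interval is not the range of depth between mice. Markers of hepatocytes had sums of 54879 to 73094 FPKM over the Con group and 63915 to 79960 FPKM over the Exe group, with all 7 markers above a mean of 1 FPKM. Of the 6 skeletal muscle markers in the files, 0 had a mean of 1 FPKM or more, and Acta1, Ckm, Mb, Myh1 and Myh4 were at 0 in at least 6 mice. The highest sum of the muscle markers was 1.26 FPKM among Con and 1.61 FPKM among Exe livers. The 4 fat markers in the files summed to at most 0.12 FPKM in any mouse. Pancreatic acinar markers summed to 30.03 FPKM in Exe 5 and to at most 17 FPKM in any other mouse. Of these 8 markers, 2 had a mean of 1 FPKM or more. Amy2a5, Cpa1, Cpb1, Ctrb1, Pnlip and Prss2 were at 0 in at least 6 mice. Bile duct markers summed to 26.18 FPKM in Con 6 and to at most 9.05 FPKM in any other mouse. Red blood cell markers had sums of 235.1 to 902.9 FPKM over the Con group and 400.3 to 1290 FPKM over the Exe group, highest in Exe 5. Their part in the values below was not tested.

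None of the 10 genes differed detectably between Exe and Con livers. The values of the groups overlapped for all 10, where 0.254% of the 10241 genes tested had groups that did not overlap. The test was limma, a linear model with moderated variances, on log2(FPKM + 1) of the genes with at least 1 FPKM in at least 6 of the 12 mice. Of the 10 genes, 9 passed this filter and Ppargc1a did not. With Benjamini-Hochberg adjustment over all genes tested, 0 of the 9 reached an adjusted p of 0.05 from limma, as did 0 of all genes tested (0%). The paper, with a test on counts, did report genes that differed between these groups. The 0 over all genes therefore holds for this fit on FPKM and not for that test. By unadjusted p from limma, 0 of the 9 were under 0.05, beside 6.21% of the 10241 genes. In an exact two-sided permutation test of each gene, 0 of the 10 reached 0.05, and the smallest p was 0.193. Of the 9 genes, 4 had a log2 fold change above 0 and 5 below 0. Their median was -0.0092, against a median of 0.016 over all genes tested. In tissue RNA, fewer cells of a type and less RNA per cell cannot be told apart.

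**Figure D1:**
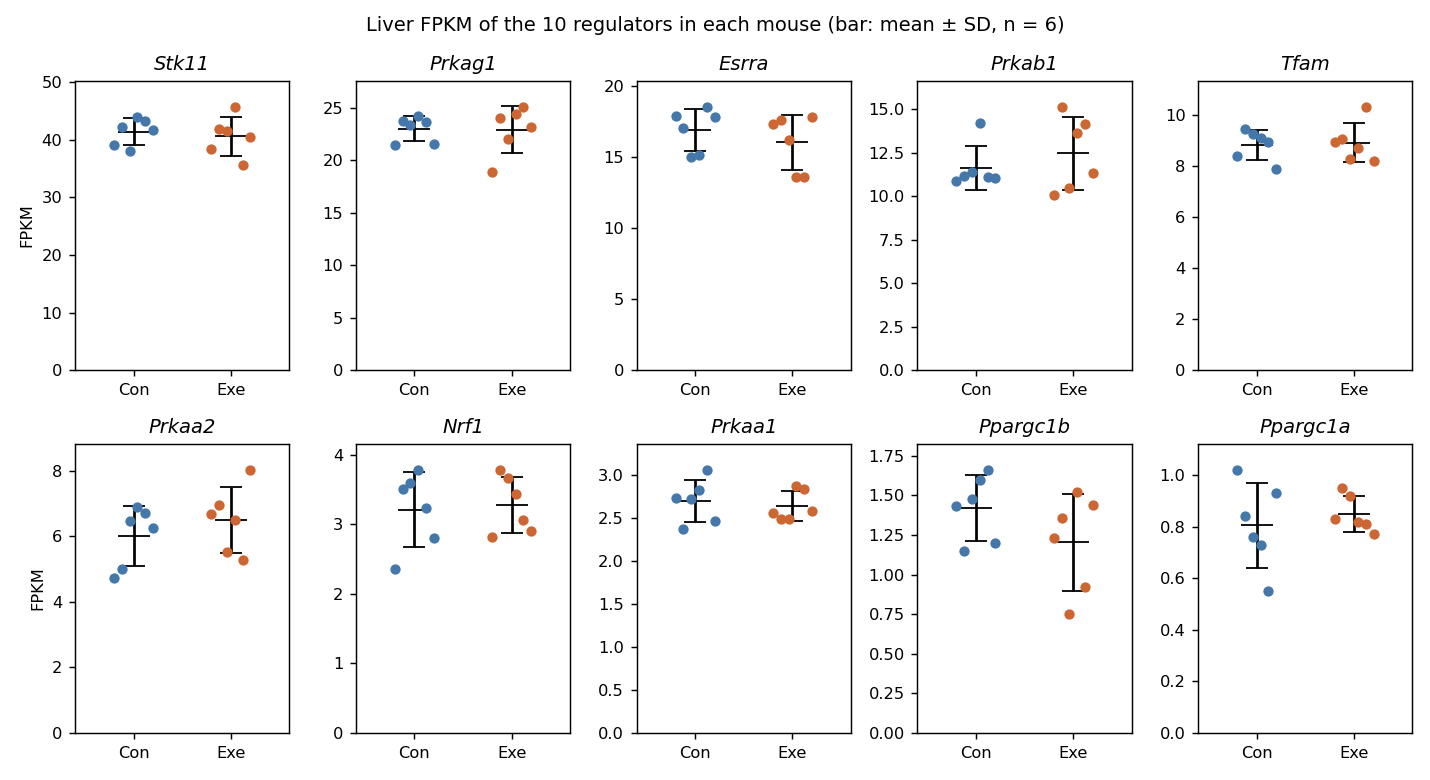
FPKM of each gene in each of the 6 Con (blue) and 6 Exe (orange) mice, ordered by mean level, with the y axis starting at 0 and its own scale in each panel. Horizontal marks are group means with SD, and in every panel the points of the groups overlap.

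Stk11 (NCBI gene ID 20869), which encodes LKB1, was the most abundant of the set. It ran from 38.0 to 43.9 FPKM over the Con group (median 41.9) and from 35.6 to 45.6 FPKM over the Exe group (median 41.0). The lowest and the highest value of all 12 mice were both in the Exe group, in Exe 5 and Exe 4. The Con mean was 41.3 ± 2.35 FPKM and the Exe mean 40.5 ± 3.38 FPKM (SD, n = 6 mice in each group). Limma put the log2 fold change at -0.03, with a 95% confidence interval from -0.16 to 0.10 (adjusted p = 0.966 from limma).

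Prkaa1 (105787) and Prkaa2 (108079) encode the catalytic subunits alpha 1 and alpha 2, of which alpha 2 is the form enriched in liver and muscle. Prkaa1 ran from 2.37 to 3.06 FPKM over the Con group (median 2.73) and from 2.49 to 2.87 FPKM over the Exe group (median 2.57). All 6 Exe values lay inside the range of the Con mice. Prkaa2 ran from 4.73 to 6.88 FPKM over the Con group (median 6.36) and from 5.26 to 8.02 FPKM over the Exe group (median 6.59). Exe 6 held the highest value, Con 1 the lowest, and 2 Exe mice were above every Con mouse. On the log2 scale Exe minus Con was -0.02 for Prkaa1 (95% confidence interval -0.15 to 0.11, adjusted p = 0.973 from limma). For Prkaa2 it was 0.10 (95% confidence interval -0.13 to 0.32, adjusted p = 0.936 from limma), and 0.04 without Exe 6 or without Con 1. In each of the 12 mice Prkaa2 was above Prkaa1. The share of Prkaa2 in the summed FPKM of both was between 63.3% and 71.7% in Con mice and between 64.9% and 75.7% in Exe mice, with a mean of 69.8% ± 3.47 over the 12 mice (SD).

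Prkab1 (19079) encodes the scaffolding subunit beta 1. It ran from 10.9 to 14.2 FPKM over the Con group (median 11.1) and from 10.1 to 15.1 FPKM over the Exe group (median 12.5). In the Con group, 5 mice lay close together and Con 4 stood above them, while the Exe mice fell into 3 at or below 11.35 FPKM and 3 at or above 13.65 FPKM. The Exe minus Con value was, on the log2 scale, 0.08, with a 95% confidence interval from -0.13 to 0.30 (adjusted p = 0.943 from limma). Its paralog Prkab2, which encodes beta 2, ran from 0.51 to 0.82 FPKM over the Con group and from 0.32 to 0.81 FPKM over the Exe group, below the filter. Prkab1 made up between 93.2% and 97.0% of the summed FPKM of both in each mouse.

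Prkag1 (19082) encodes the nucleotide-binding subunit gamma 1. It ran from 21.5 to 24.2 FPKM over the Con group (median 23.5) and from 18.9 to 25.02 FPKM over the Exe group (median 23.6). Exe 1 was below every Con mouse, and 2 Exe mice were above every Con mouse. Relative to Con, the log2 fold change was -0.01, with a 95% confidence interval from -0.15 to 0.13 (adjusted p = 0.993 from limma). Of the other gamma genes, Prkag3, the muscle form, was at 0 in 8 mice and at most 0.04 FPKM in the rest. Prkag2 (108099), which encodes gamma 2, ran from 5.94 to 9.12 FPKM over the Con group (median 7.47) and from 8.17 to 9.46 FPKM over the Exe group (median 9.02). For Prkag2 the lowest Exe mouse was above the Con median, and 2 Exe mice were above every Con mouse. Limma put the log2 fold change of Prkag2 at 0.21 (95% confidence interval 0.03 to 0.39, unadjusted p = 0.0257 from limma), with an adjusted p of 0.793 from limma and an exact permutation p of 0.0346 (n = 6). Prkag1 made up between 70.1% and 79.9% of the summed gamma FPKM in Con mice and between 69.8% and 74.5% in Exe mice.

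Ppargc1a (19017) encodes PGC-1 alpha and was the lowest of the set, with 1 of the 12 mice at or above 1 FPKM. It ran from 0.55 to 1.02 FPKM over the Con group (median 0.80) and from 0.77 to 0.95 FPKM over the Exe group (median 0.825). All 6 Exe values lay inside the range of the Con mice, whose lowest value was in Con 5 and highest in Con 1. The Con mean was 0.805 ± 0.165 FPKM and the Exe mean 0.850 ± 0.0696 FPKM (SD, n = 6), a difference of 0.04 on the log2(FPKM + 1) scale with an exact permutation p of 0.541. This scale understates the change of so low a gene, and the ratio of the group means in FPKM was 1.06. Without the filter, limma gave a 95% confidence interval from -0.09 to 0.17 for this difference (adjusted p = 0.956 over 16804 genes). At the estimated depth, and with the 6464 bases of its longest annotated coding transcript, the mean of 0.828 FPKM stands for about 86.2 fragments per mouse. Counting alone then gives a coefficient of variation of 10.8%, where that between the 12 mice was 14.8%. Transcripts from the alternative start sites of Ppargc1a are not separated in these values.

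Ppargc1b (170826) encodes PGC-1 beta, the coactivator tied to fat synthesis as well as respiration in the liver. It ran from 1.15 to 1.66 FPKM over the Con group (median 1.46) and from 0.75 to 1.52 FPKM over the Exe group (median 1.30). Exe 3 and Exe 5 were below every Con mouse, and the other 4 Exe mice lay inside the Con range. The Con mean was 1.42 ± 0.207 FPKM and the Exe mean 1.20 ± 0.306 FPKM (SD, n = 6), a ratio of 0.847. The log2 fold change of -0.14 was the farthest from 0 of the 9 genes in the fit, with a 95% confidence interval from -0.35 to 0.06 and an adjusted p of 0.8997 from limma. Its exact permutation p was 0.193 (n = 6). Without Exe 3 the log2 fold change was -0.08. The log2(FPKM + 1) scale understates the change of so low a gene. With a pseudocount of 0.1 in place of 1, the log2 fold change over all mice was -0.247. Pprc1, the remaining gene of the PGC-1 family, ran from 2.18 to 3.62 FPKM over the Con group and from 2.19 to 4.34 FPKM over the Exe group, with a log2 fold change of 0.18 (unadjusted p = 0.212 from limma).

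Esrra (26379) encodes the orphan nuclear receptor ERR alpha, a partner of the PGC-1 coactivators. It ran from 15.0 to 18.5 FPKM over the Con group (median 17.4) and from 13.6 to 17.8 FPKM over the Exe group (median 16.8). Exe 4 and Exe 5, at 13.63 and 13.61 FPKM, were below every Con mouse. Limma put the log2 fold change at -0.08, with a 95% confidence interval from -0.25 to 0.10 (adjusted p = 0.935 from limma). The related genes Esrrb and Esrrg reached at most 0.21 and 0.69 FPKM in any mouse.

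Nrf1 (18181) encodes nuclear respiratory factor 1, which is distinct from the oxidative stress factor of a similar name. It ran from 2.35 to 3.78 FPKM over the Con group (median 3.37) and from 2.82 to 3.78 FPKM over the Exe group (median 3.25). On the log2 scale Exe minus Con was 0.03, with a 95% confidence interval from -0.17 to 0.23 (adjusted p = 0.980 from limma). Tfam (21780) ran from 7.91 to 9.48 FPKM over the Con group (median 9.03) and from 8.20 to 10.3 FPKM over the Exe group (median 8.85). Exe 5 held the highest Tfam value and was the only Exe mouse above every Con mouse. The log2 fold change of Tfam was 0.01, with a 95% confidence interval from -0.12 to 0.15 (adjusted p = 0.987 from limma).

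**Figure D2:**
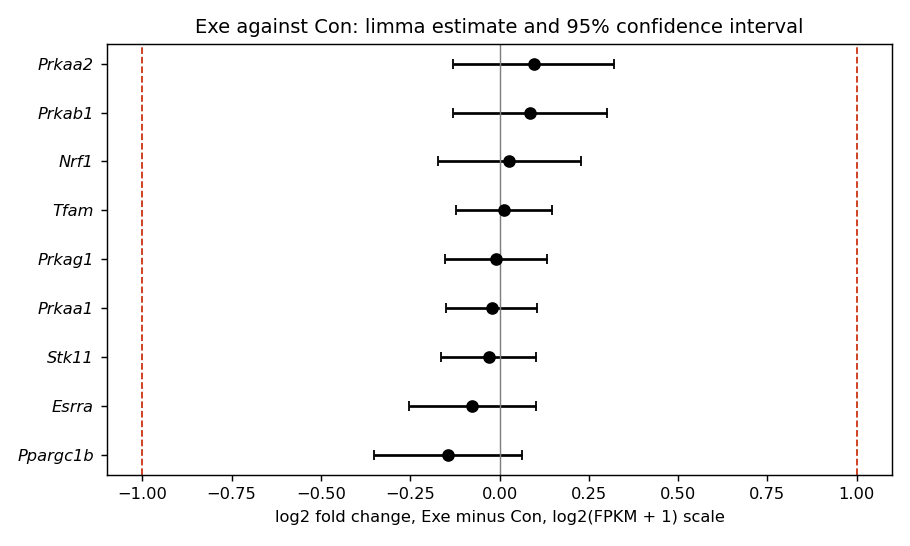
Log2 fold change, Exe minus Con, on the log2(FPKM + 1) scale for the 9 genes that passed the filter, with 95% confidence intervals from limma. All intervals include 0, and the bound farthest from 0 is -0.35, inside the dashed lines at an absolute log2 fold change of 1. This scale understates the change of genes near 1 FPKM, such as Ppargc1b, so their intervals look narrower than on a scale without the added 1.

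The genes spanned a wide range of levels. In order of mean FPKM over the 12 mice they ran Stk11 (40.9), Prkag1 (22.95), Esrra (16.5), Prkab1 (12.04), Tfam (8.89), Prkaa2 (6.25), Nrf1 (3.24), Prkaa1 (2.67), Ppargc1b (1.31) and Ppargc1a (0.828). Neighbours whose ranges over the mice did not overlap were Stk11 and Prkag1, Prkag1 and Esrra, Prkaa2 and Nrf1, and Prkaa1 and Ppargc1b. The ranges of the other 5 neighbouring pairs overlapped. Within mice, the order of Esrra and Prkab1 held in 10 of 12, that of Nrf1 and Prkaa1 in 11 and that of Ppargc1b and Ppargc1a in 11. Ppargc1b was between 1.29 and 3.02 times Ppargc1a in Con mice and between 0.815 and 1.87 times in Exe mice, lowest in Exe 3. In FPKM, Prkag1 was on average 2.60 ± 0.341 times both alpha genes together (SD over the 12 mice). The transcript lengths behind the deposited FPKM are not known, so the ratio of the transcripts themselves may differ.

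Variation between mice was also unequal. The coefficient of variation over the 12 mice was 20.9% for Ppargc1b, 15.2% for Prkaa2, 14.8% for Ppargc1a, 14.3% for Prkab1 and 14.1% for Nrf1. It was 10.4% for Esrra, 7.74% for Prkaa1, 7.38% for Prkag1, 7.33% for Tfam and 6.86% for Stk11, and its median over all genes tested was 11.7%. For Stk11, 11.2% of the genes tested varied less between mice, and for Ppargc1b 83.5% did. These shares are over genes of all levels, and counting adds more variation to a gene of low level. At the estimated depth, counting alone gives 2.54% to 6.11% for Stk11 and 11.6% to 12.2% for Ppargc1b.

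To see how the genes varied with each other, 67 relations across the 12 mice were computed with 100000 permutations each: the 45 pairs of the set, each gene with the mean of 8 acute-phase genes (the liver's response to inflammation), each with the clock gene Arntl, and Ppargc1a with the gluconeogenic genes Pck1 and G6pc. All values of a mouse share a library and its scaling. Over the 45 pairs Pearson's r ranged from -0.63 to 0.73 with a median of 0.13, and 27 were above 0. With Benjamini-Hochberg adjustment over the 67 relations, 0 reached 0.05 by Pearson's r (4 did unadjusted) and 1 did by Spearman's rho.

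That pair was Prkab1 and Prkag1, the beta and gamma subunits. Over the 12 mice, rho was 0.86 (permutation p = 0.00067, adjusted 0.0449) and r was 0.73 (permutation p = 0.00423, adjusted 0.217). Without Con 4 and Exe 2, the mice farthest from the median of Prkab1, r was 0.77 (permutation p = 0.0119). Within groups r was 0.59 in Con mice (exact permutation p = 0.237) and 0.83 in Exe mice (exact permutation p = 0.0153). Exe 1 was the lowest mouse for both genes, and Exe 4 and Exe 5 were high in both, while Con 2 and Con 5 were low in Prkab1 and not in Prkag1.

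The promoter windows of the set were searched on both strands for letters bound by the factors of the pathway. Each window ran from 250 bases before to 50 after the annotated start (RefSeq on GRCm38.p6). The windows cover 9 of the 10 genes, with 2 windows for Nrf1, and Ppargc1b was not among them. The CCGGAAG core of ETS factors, which GABP (nuclear respiratory factor 2) binds, was found in Prkab1, Prkag1 and Tfam. It was present in 8.86% of all 32851 windows and in 11.6% of the 21263 windows of protein-coding genes. The NRF1 palindrome with 1 letter left free was found in 0 of the windows of the set and in 4.6% of all windows (6.38% of those of protein-coding genes). The ERR alpha core AAGGTCA, which also lies within the longer TCAAGGTCA, was found in 0 of them and in 4.72% of all windows (4.08% of protein-coding). The CREB site TGACGTCA was in 0 of them and in 1.79% of all windows (2.23% of protein-coding). With 10 windows in the set, finding 0 at such shares says little. All results of this search are matches of letters in a short window, not measured binding. The 30 bases around each match are shown 5′ to 3′ on the strand of the gene, with the core in capitals. They lie at chr5:116024447-116024476, chr15:98831555-98831584 and chr10:71238073-71238102 (GRCm38.p6, all on the minus strand), with the core starting 37, 65 and 47 bases before the annotated start.
Prkab1: gctgggcccggCCGGAAGcggaagtggcta
Prkag1: ctcagccaccgCCGGAAGggtgggttcccc
Tfam: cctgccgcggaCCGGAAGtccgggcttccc
Over the 12 mice, Tfam had an r of 0.48 with Prkab1 (permutation p = 0.119, adjusted 0.503). With Prkag1 its r was 0.47 (permutation p = 0.127, adjusted 0.503). Without Con 6 and Exe 5, the mice farthest from the median of Tfam, these fell to 0.28 and 0.25. Nrf1, whose windows lack the core, had values as high. Its r was 0.55 with Prkag1 (permutation p = 0.0621, adjusted 0.503) and 0.47 with Prkab1 (permutation p = 0.122, adjusted 0.503). Whether the core has a part in how these genes vary was not tested.

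**Figure D3:**
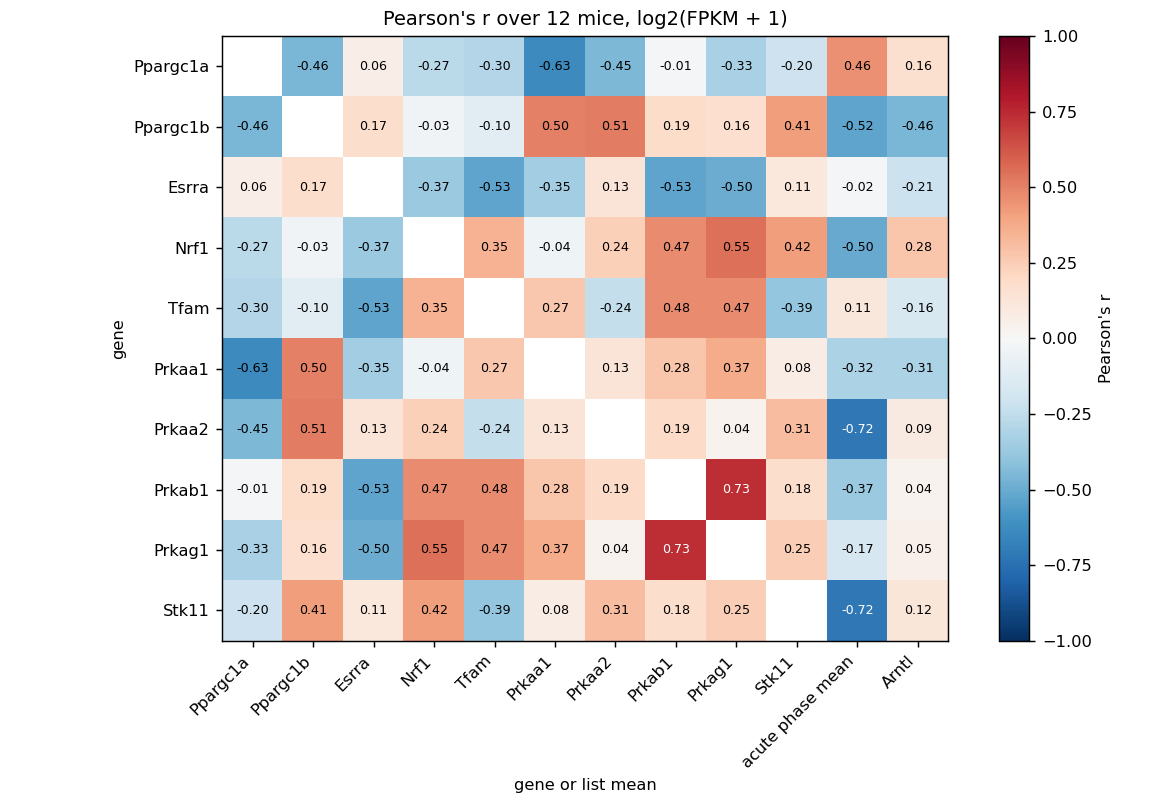
Pearson's r over the 12 mice of log2(FPKM + 1) for each pair of the 10 genes, and of each gene with the mean of 8 acute-phase genes and with Arntl. Red is positive and blue negative, and the pair farthest from 0 among the genes is Prkab1 and Prkag1 at 0.73.

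Stk11 and Prkaa2 were lower in mice with a higher acute-phase level, without passing the adjustment. The acute-phase mean ranged from 7.41 to 11.2 on the log2(FPKM + 1) scale in Con mice, highest in Con 1, and from 7.43 to 11.2 in Exe mice, highest in Exe 5. For Stk11, r was -0.72 (permutation p = 0.0093, adjusted 0.217) and rho was -0.70 (permutation p = 0.0143, adjusted 0.318). It was -0.74 in Con mice (exact permutation p = 0.0931) and -0.85 in Exe mice (exact permutation p = 0.0444). For Prkaa2, r was -0.72 (permutation p = 0.00972, adjusted 0.217) and rho was -0.79 (permutation p = 0.00338, adjusted 0.113). It was -0.81 in Con mice (exact permutation p = 0.0694) and -0.58 in Exe mice (exact permutation p = 0.233). Without the 2 mice farthest from the median of each gene, r fell to -0.55 for Stk11 (permutation p = 0.103) and -0.56 for Prkaa2 (permutation p = 0.0957), and neither passed 0.05 unadjusted with those mice left out. With the acute-phase mean as a covariate, 1 of the 9 genes passed an unadjusted p of 0.05 from limma, as did 6.04% of all 10241 genes in that fit. It was Ppargc1b, at -0.19 on the log2 scale (unadjusted p = 0.0390, adjusted p = 0.814, both from limma). Ppargc1b had an r of -0.52 with the acute-phase mean (permutation p = 0.0798, adjusted 0.503). Its rho was -0.61 (permutation p = 0.0408, adjusted 0.327). Within groups its r was -0.70 in Con mice (exact permutation p = 0.114) and -0.73 in Exe mice (exact permutation p = 0.106).

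For Ppargc1a and Prkaa1, r was -0.63 (permutation p = 0.0238, adjusted 0.399) and rho was -0.61 (permutation p = 0.0394, adjusted 0.327), without passing the adjustment. Without Con 1 and Con 5, r was -0.64 (permutation p = 0.0518). Within groups it was -0.66 in Con mice (exact permutation p = 0.150) and -0.57 in Exe mice (exact permutation p = 0.2). At the estimated depth, counting alone gives Prkaa1 a coefficient of variation of 7.15% to 7.18%, against 7.74% between the 12 mice. Ppargc1b went the other way with Prkaa1, with r of 0.50 (permutation p = 0.0960, adjusted 0.503) and rho of 0.65 (permutation p = 0.0240, adjusted 0.327). Within groups that r was 0.97 in Con mice (exact permutation p = 0.00278) and 0.17 in Exe mice (exact permutation p = 0.789). Between Ppargc1a and Ppargc1b, rho was -0.60 (permutation p = 0.0427, adjusted 0.327). With the gluconeogenic genes, r of Ppargc1a was -0.32 for Pck1 (permutation p = 0.321, adjusted 0.695) and -0.26 for G6pc (permutation p = 0.377, adjusted 0.709), and rho was -0.25 (permutation p = 0.430, adjusted 0.702) and -0.34 (permutation p = 0.277, adjusted 0.620). With Esrra, its partner, r was 0.06 (permutation p = 0.847, adjusted 0.944) and rho was 0.22 (permutation p = 0.497, adjusted 0.757).

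Of the 10241 genes tested, genes among those most like Ppargc1a over the 12 mice by Pearson's r were Akr1b3 (0.88), Pgap6 (0.88), Gng10 (0.87) and Ppp3cc (0.87). These are the highest of many values, so no p is given, and without Con 1 and Con 5 they lay between 0.60 and 0.78. For the other genes, the most alike was Slc38a2 for Ppargc1b (0.88), Alas1 for Esrra (0.87), Dnajc13 for Nrf1 (0.94), Rap1b for Tfam (0.94), Sfmbt1 for Prkaa1 (0.81), Ces1d for Prkaa2 (0.97), Pdcl3 for Prkab1 (0.92), Derpc for Prkag1 (0.92) and Cox7c for Stk11 (0.91). Prkaa2 and the carboxylesterase gene Ces1d, which ranged from 98.4 to 482.3 FPKM, kept an r of 0.94 without the 2 mice farthest from the median of Prkaa2. Ces1d was picked as the highest over these same mice, so this value is not independent of the choice.

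Around the set, 8 lists of pathway genes held 110 genes that passed the filter. At an adjusted p of 0.05 from limma, 0 of them passed. At an unadjusted p of 0.05 from limma, 8 passed (7.27%, where the whole table gave 6.21%), 6 higher and 2 lower in Exe mice. Of the whole table, 4.27% were higher and 1.94% lower in Exe mice at this threshold. The count of 8 became 2 without Exe 2, 3 without Con 5, 4 without Con 1 or Con 3, and 5 without Con 2. Of the 110 genes, 73 had a log2 fold change above 0, with a median of 0.03. Of all genes tested, 57.5% were above 0, and this is the level against which the counts above 0 in each list below stand.

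**Figure D4:**
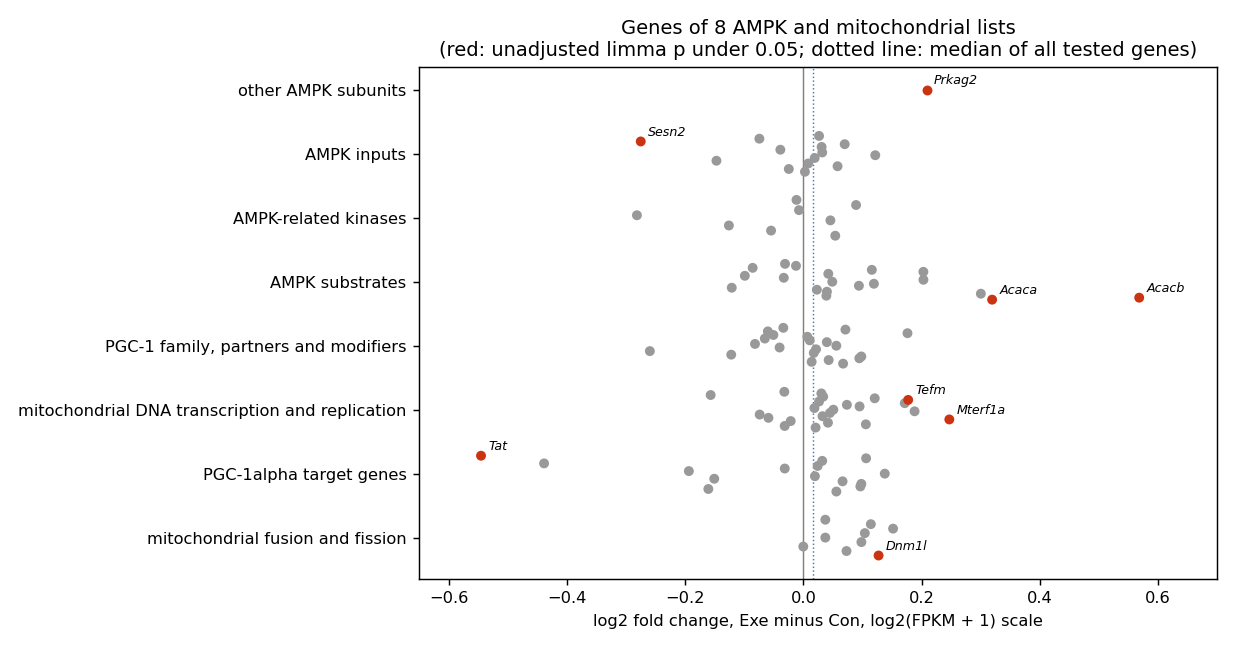
Log2 fold change, Exe minus Con, on the log2(FPKM + 1) scale of each tested gene of the 8 pathway lists (1 point per gene, rows are lists). The 8 red points have an unadjusted p under 0.05 from limma, with Acacb at 0.57 and Tat at -0.55 the farthest from 0. Changes of genes of low level, such as Sesn2 and Mterf1a, are understated on this scale.

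Among AMPK substrates, 19 of 20 genes were tested and 13 were above 0, with a median log2 fold change of 0.04. Both acetyl-CoA carboxylase genes passed the unadjusted threshold. Acacb (100705), whose product makes the malonyl-CoA that restrains fatty acid entry into mitochondria, ran from 6.42 to 9.44 FPKM over the Con group (median 7.62) and from 7.93 to 17 FPKM over the Exe group (median 12.6). The Exe mice split, with 4 above every Con mouse and Exe 4 and Exe 5 inside the Con range. Its Con mean was 7.67 ± 1.07 FPKM and the Exe mean 12.2 ± 3.77 FPKM (SD, n = 6), a log2 fold change of 0.57 (95% confidence interval 0.21 to 0.93, adjusted p = 0.761 from limma) with an exact permutation p of 0.0195. Acaca (107476), the form used for fatty acid synthesis, had a Con mean of 8.87 ± 1.77 FPKM and an Exe mean of 11.4 ± 2.70 FPKM (SD, n = 6). The Exe minus Con value was, on the log2 scale, 0.32 (95% confidence interval 0.01 to 0.63, adjusted p = 0.799 from limma), its exact permutation p was 0.0714, and 2 Exe mice were above every Con mouse.

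Among AMPK inputs, 14 of 17 genes were tested, 9 above and 5 below 0. Sesn2 (230784), a stress-induced sestrin that acts upstream of AMPK, ran from 1.66 to 2.85 FPKM over the Con group (median 2.62) and from 1.39 to 2.39 FPKM over the Exe group (median 1.82). Relative to Con, the log2 fold change was -0.28 (95% confidence interval -0.51 to -0.04, adjusted p = 0.793 from limma), with an exact permutation p of 0.0433 (n = 6), and 2 Exe mice were below every Con mouse. Cab39l, a partner of LKB1, was at 0.06 on the log2 scale (adjusted p = 0.932 from limma). Among the AMPK-related kinases, 8 of 13 genes were tested and 0 passed the unadjusted threshold. The lowest unadjusted p values from limma there were 0.114 for Mark4 (log2 fold change -0.13) and 0.327 for Sik3 (0.09).

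Among the partners and modifiers of the PGC-1 family, 21 of 25 genes were tested, 13 above and 8 below 0, and 0 passed the unadjusted threshold. The lowest unadjusted p values from limma were 0.172 for Ncoa1 (log2 fold change -0.08) and 0.1998 for Gabpb2 (0.10), a subunit of GABP. Of the known PGC-1 alpha target genes, 15 of 16 were tested, 9 above and 6 below 0. Tat (234724), the tyrosine aminotransferase induced by glucocorticoids, ran from 411.8 to 944.2 FPKM over the Con group (median 721.7) and from 316.8 to 747.1 FPKM over the Exe group (median 447.7). Limma put the log2 fold change of Tat at -0.55 (95% confidence interval -1.04 to -0.05, adjusted p = 0.793 from limma), with an exact permutation p of 0.0714 (n = 6). Pck1 (18534), the committed enzyme of gluconeogenesis, had a Con mean of 1080 ± 317.5 FPKM and an Exe mean of 784.5 ± 191.8 FPKM (SD, n = 6). On the log2 scale Exe minus Con was, for Pck1, -0.44 (95% confidence interval -0.90 to 0.02, adjusted p = 0.809 from limma). Con 6 was the lowest Con mouse and Exe 5 the lowest Exe mouse for both Tat and Pck1.

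Among genes of mitochondrial DNA transcription and replication, 23 of 26 were tested, 17 above and 6 below 0. Mterf1a and Tefm, which act in termination and elongation of mitochondrial transcription, passed the unadjusted threshold. Tefm (68550) ran from 7.56 to 9.83 FPKM over the Con group (median 8.22) and from 8.19 to 11.35 FPKM over the Exe group (median 9.85), a log2 fold change of 0.18 (95% confidence interval 0.00078 to 0.35, adjusted p = 0.799 from limma) with an exact permutation p of 0.0628. The log2 fold change of Mterf1a was 0.25 (adjusted p = 0.799 from limma), with an exact permutation p of 0.0714. With a pseudocount of 0.1 in place of 1, its log2 fold change was 0.396. Mterf1a has a near copy, Mterf1b, with which reads could be shared, so its value is uncertain. Among the genes of mitochondrial fusion and fission, all 9 were tested and 8 were above 0. Dnm1l (74006), the fission GTPase, ran from 8.87 to 10.8 FPKM over the Con group (median 9.99) and from 10.5 to 11.35 FPKM over the Exe group (median 10.985), with 4 Exe mice above every Con mouse. The Exe minus Con value was, on the log2 scale, 0.13 (95% confidence interval 0.01 to 0.24, adjusted p = 0.793 from limma), with an exact permutation p of 0.0108 (n = 6). Oma1, a protease that cleaves the fusion factor OPA1, was at 0.15 on the log2 scale (adjusted p = 0.809 from limma).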

How the data were processed

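Total liver RNA of 12 mice was sequenced on the DNBseq platform as paired reads. The authors trimmed and filtered reads for quality and used HISAT with the GRCm39 genome. The deposited values are FPKM with 2 decimals. The submitters' processing notes also name Bowtie2 and mm10. The tool that made the FPKM is not given in the sources used here, nor is any scaling between mice. FPKM are not counts, so the authors' count test (DESeq) was replaced by limma.

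Samples were grouped by their labels. With R 4.3.3 and limma 3.58.1, log2(FPKM + 1) of the 10241 genes with at least 1 FPKM in at least 6 mice was fitted with the group as the only term (eBayes with a trend). The thresholds were an adjusted p of 0.05 and, as in the paper, an absolute log2 fold change of 1. Exact permutation tests (two-sided, smallest possible p 0.00216), correlations and figures used Python 3.11.15 (scipy 1.17.1, numpy 2.4.6, matplotlib 3.10.9, pandas 2.3.3). The fit and the depth estimate were tried on simulated data with independent noise for each gene and equal depth. Those trials do not cover effects shared by the genes of a mouse, and their outcome is not used here as support. The depth estimate took transcript lengths from GENCODE M21, which may differ from those behind the deposited FPKM. Fragment numbers are therefore approximate.

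The members and lists were chosen with earlier results of these data known. Named genes were the members, the genes of each list at an unadjusted p of 0.05 (or the 2 with the lowest p), the genes most like each member and those of the relations. A gene that this rule names is not reported here. Esrrb, Esrrg, Prkab2, Prkag3 and Pprc1 were named after their values were seen. Alternatives were quantile normalization, median centring, a pseudocount of 0.1, no filter, a filter at 5 FPKM, robust moderation, the replicate number as a block, an acute-phase covariate and each mouse left out. For the pathway lists they were added after seeing the data.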

Additional observations from a re-analysis of the deposited data

Results flagged for a closer look

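In the Con group, Prkab1 was at 14.18 FPKM in Con 4, while the other 5 Con mice lay at or below 11.37 FPKM, which put Con 4 past the critical value of Dixon's ratio. This was 1 of 20 sets of 6 mice examined (10 genes in 2 groups), and chance gives about 1 in 20. In the Exe group, 3 mice were near or above this level. The log2 fold change of Prkab1 was 0.08 with all mice. It was 0.14 without Con 4 or without Exe 1, 0.13 without Exe 3, 0.05 without Exe 5 and 0.03 without Exe 2.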

How the results depend on the processing

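Over all alternatives the 10 genes gave 193 values, of which 181 had the sign and call of the main result and 12 changed sign, 11 of them when 1 mouse was left out. With the acute-phase covariate the log2 fold change of Nrf1 was -0.0024. With each mouse left out in turn it ranged from -0.0360 to 0.0666 for Nrf1, from -0.0268 to 0.0330 for Tfam, from -0.0485 to 0.00528 for Prkaa1, from -0.0348 to 0.0425 for Prkag1, from -0.0635 to 0.00611 for Stk11 and from -0.00312 to 0.0733 for Ppargc1a. The range was 0.04 to 0.145 for Prkaa2 (0.0461 with the covariate), 0.0304 to 0.140 for Prkab1, -0.107 to -0.0335 for Esrra (-0.0339 without Exe 4 and -0.0507 without Con 5) and -0.184 to -0.0791 for Ppargc1b (-0.247 with a pseudocount of 0.1). The genes past an adjusted p of 0.05 numbered 0 in every alternative but that without a filter, where 1 of all genes passed, which was none of the set. The set had 1 gene at an unadjusted p of 0.05 with the acute-phase covariate (0 otherwise), a fit in which 6.04% of all genes were. Genes at an unadjusted p of 0.05 numbered between 418 and 905 over the fits without 1 mouse, against 636, and pathway genes between 2 and 11, against 8. All 295 values of the named pathway genes kept their direction and stayed above an adjusted p of 0.05, while their side of the unadjusted threshold varied, as these counts show. With quantile normalization the share of genes at an unadjusted p of 0.05 that were higher in Exe mice went from 68.7% to 56.8%. Same-numbered mice did not deviate together (correlations from -0.48 to 0.16, and 2 of the 12 mice correlated best with their own number). These values give no sign of pairing by number but cannot exclude it. With the replicate number as a block, 567 genes were at an unadjusted p of 0.05, 0 of the set among them, and 8 pathway genes. Ppargc1a was not fitted under the block, the covariate, robust moderation or the stricter filter, because it is below the filter. At the estimated depth, counting gave a coefficient of variation of 11.6% to 12.2% for Ppargc1b, against 20.9% between mice, and the value for Ppargc1a depends on the transcript length assumed.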

Other observations

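Several genes of these lists were near the limit of detection in all livers. Perm1, a muscle partner of PGC-1 alpha and ERR alpha, ran from 0.04 to 0.17 FPKM over the Con group and from 0.07 to 0.24 FPKM over the Exe group. Camkk1 reached at most 0.31 FPKM and Brsk2 was at 0 in 10 mice. Fgf21, a fasting hormone of the liver and a PGC-1 alpha and PPAR alpha target, spread widely inside both groups, from 0.09 to 2.26 FPKM in Con mice and from 0.25 to 2.37 FPKM in Exe mice. Sesn3, a FOXO-induced sestrin, ran from 0.54 to 1.11 FPKM over the Con group and from 0.70 to 1.37 FPKM over the Exe group. These genes were chosen after their values were seen.

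Over the 10 genes, Con 5 held the highest value of 3 (Ppargc1b, Esrra and Prkaa1) and the lowest of Ppargc1a. Exe 5 held the highest value of Tfam and Prkag1 and the lowest of Esrra and Stk11, and it was also the mouse with the highest acinar, lymphocyte and red blood cell marker sums. Con 3 held neither a highest nor a lowest value of the set.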
